A study of Rattus norvegicus with 11 samples.

Results

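Gja1, Cd36 and Pdpn are 3 genes for cell surface proteins that were chosen because they were far higher on the array of ASML cells labelled CD44 knock-down than on the array of wild-type ASML cells. They are 3 of 16898 rat genes with a named probe and 3 of the 11069 genes kept after a filter on dim probes. They carry 5 of the 30367 probes, 1 for Gja1 and 2 each for Cd36 and Pdpn, and all 5 passed the filter. Because the difference between the ASML arrays chose them, that difference is given as a description, with no test.

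The 11 arrays fall into 9 groups. ASML, a metastatic rat pancreatic adenocarcinoma line, was measured with CD44 knock-down and as wild type. The labels do not say how CD44 was lowered or whether the cells are 1 clone. EC, labelled endothelial cells, and RF, labelled endothelial fibroblasts, were measured after ASTspan8 exosomes, after AS exosomes and at base line as controls, and the RF control's source field names endothelial cell lines instead. The exosomes, small vesicles released by cells, came from AS, a rat pancreatic tumour line, either as it is or with tetraspanin 8 introduced (ASTspan8). Their donor is thus not the ASML line, and how AS and ASML are related was not examined. RNA of ASTspan8 exosomes was measured as well. All cell lines were kept in serum and the selection drug G418. The exosome RNA and EC after ASTspan8 exosomes have 2 arrays each, of which 1 is numbered replicate 1 and the other carries no number, and the other 7 groups have 1 array each. No label says that paired arrays come from separate cultures, so the p-values reflect array-to-array spread alone, which may be technical. Levels are log2 intensity, each gene is represented by its brighter probe unless the dimmer is named, and levels are compared within a probe only. The lowest values on an array lie near log2 6, and array medians lie between 7.29 and 7.37.

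Gja1 encodes connexin 43, the most widespread of the connexins, which assemble into hemichannels that dock between neighbouring cells as gap junctions and let ions and small metabolites pass. Cd36 encodes a scavenger receptor and fatty acid translocase that takes up long-chain fatty acids and oxidised lipoproteins and binds thrombospondin, through which it restrains the growth of microvessels. Pdpn encodes podoplanin, a mucin-type glycoprotein found on lymphatic endothelium, mesothelium and some fibroblasts and at the invading edge of carcinomas. It activates platelets through the receptor CLEC-2, links to actin through ezrin and moesin, and can bind CD44 itself. CD44 is a receptor for hyaluronan that carcinoma cells use in adhesion and migration.

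The promoters of the 3 genes are shown as a description of what the sequences hold. All 3 genes were chosen for the same difference between the ASML arrays, so their common direction there is no sign of shared control. They come from RefSeq, build GRCr8, for all 3 genes, and cover 250 bases before to 50 bases after 1 annotated start for each gene, written along the gene's own strand. Capitals mark matches to 5 motifs searched on both strands. The AP-1 motif was searched as TGANTCA. For the TATA box the letters were TATAAA. The GC box was read as GGGCGG. For the CCAAT box the name gives the letters. The Snail-type E-box was read as CACCTG. Gja1 lies at chr20:36302314-36302613 on the plus strand, Cd36 at chr4:18246332-18246631 on the plus strand and Pdpn at chr5:160918910-160919209 on the minus strand. The annotated Cd36 gene spans 18209088 to 18302142, so its window lies inside the gene, and the sequence at the gene's first base was not searched. The Gja1 gene begins at 36302490 and the Pdpn gene, on the minus strand, at 160919112, so both windows hold the gene's first base. The starts used for Gja1 and Pdpn lie downstream of that base, and so do all matches in these windows.
Gja1: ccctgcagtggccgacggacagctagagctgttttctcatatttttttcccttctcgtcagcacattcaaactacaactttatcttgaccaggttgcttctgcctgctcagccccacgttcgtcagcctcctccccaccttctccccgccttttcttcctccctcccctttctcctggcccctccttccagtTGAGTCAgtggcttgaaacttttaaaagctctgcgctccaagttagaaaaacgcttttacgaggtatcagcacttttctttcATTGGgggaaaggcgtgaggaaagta
Cd36: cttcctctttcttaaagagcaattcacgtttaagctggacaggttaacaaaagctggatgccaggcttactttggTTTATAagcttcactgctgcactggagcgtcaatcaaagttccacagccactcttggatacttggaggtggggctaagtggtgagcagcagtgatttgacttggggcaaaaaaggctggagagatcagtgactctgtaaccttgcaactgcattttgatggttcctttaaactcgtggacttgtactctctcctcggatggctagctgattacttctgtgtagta
Pdpn: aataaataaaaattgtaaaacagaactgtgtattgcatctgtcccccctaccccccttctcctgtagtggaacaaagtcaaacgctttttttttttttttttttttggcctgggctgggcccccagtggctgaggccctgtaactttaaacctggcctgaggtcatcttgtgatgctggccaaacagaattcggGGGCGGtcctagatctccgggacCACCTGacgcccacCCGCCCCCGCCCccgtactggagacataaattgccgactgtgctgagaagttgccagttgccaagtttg
The 3 windows share none of the 5 motifs. The Gja1 window holds an AP-1 match, TGAGTCA, that begins 58 bases before the start, and a reversed CCAAT box downstream of the start. AP-1 letters occur in 7.33% of the 33469 promoters of the same table and the CCAAT box in 37.5%. The Cd36 window holds only a reversed TATA box, which begins 175 bases before the start and is of a kind found in 14.2% of promoters. The Pdpn window holds 3 GC boxes, of which 1 begins 56, 1 begins 19 and 1 begins 13 bases before the start, and a Snail-type E-box that begins 33 bases before it. GC boxes occur in 33.1% and this E-box in 18.8% of promoters. GC content was 50.3% for Gja1, 45.7% for Cd36 and 51.0% for Pdpn, against a median of 51.7% over all promoters. A match says only that the letters are there.

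Cd44 itself gave a mixed check of the label. Its brightest probe read 12.30 in the array labelled CD44 knock-down and 13.56 in wild type, a difference of -1.26 log2 or 2.39-fold lower. Of its 3 dimmer probes 2 were higher in the array labelled knock-down, at 8.79 against 8.28 and at 8.77 against 7.43, and the dimmest lay near the bottom of the scale on both. Which transcripts these probes cover was not analysed here. Tspan8, the tetraspanin given to the exosome donor cells, read 13.06 with CD44 knock-down and 13.80 in wild type, 10.16 and 10.28 in exosome RNA, and 6.30 to 6.65 on the 7 EC and RF arrays.

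Gja1 read 13.59 in ASML cells labelled CD44 knock-down and 6.14 in wild type. This is percentile 93.0 among the probes of the knock-down array and percentile 9.2 among those of the wild-type array, so connexin 43 messenger RNA was among the brighter signals in one and at the low end of the scale in the other. The difference was 7.45 log2, or 175-fold.

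Cd36 read 13.63 with CD44 knock-down and 6.36 in wild type, a difference of 7.27 log2 or 154-fold. The dimmer probe read 11.34 with CD44 knock-down and 6.23 in wild type, a difference of 5.11 log2 or 34.5-fold. Both Cd36 probes were thus high with knock-down and near the bottom of the scale without it.

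Pdpn read 12.88 with CD44 knock-down and 6.17 in wild type, a difference of 6.71 log2 or 105-fold. Its dimmer probe read 7.96 with knock-down and 6.25 in wild type, only 1.71 log2 or 3.27-fold apart. The probes share a direction but not a size. All 3 wild-type values sit close to the lowest values of the array, so each ratio depends on how the authors treated background.

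Among 11069 genes ordered by this difference, Gja1 was at rank 2, Cd36 at rank 3 and Pdpn at rank 4. Rank 1 was Wfdc15a, with 7.79 log2, and rank 5, the first below the members, was the cadherin gene Cdh6 with 6.42. Among all 18619 probes the members were at ranks 4, 6 and 17, since 20 of the 25 highest probes had no gene name. All 3 were at least 2-fold higher, as were 1176 of 11069 genes or 10.6%, which the choice of the members makes certain. The wild-type values lie near the bottom of the scale, so the exact ranks depend on the background treatment and are given only to show how the genes were chosen. Another 994 genes or 8.98% were at least 2-fold lower.

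**Figure D1:**
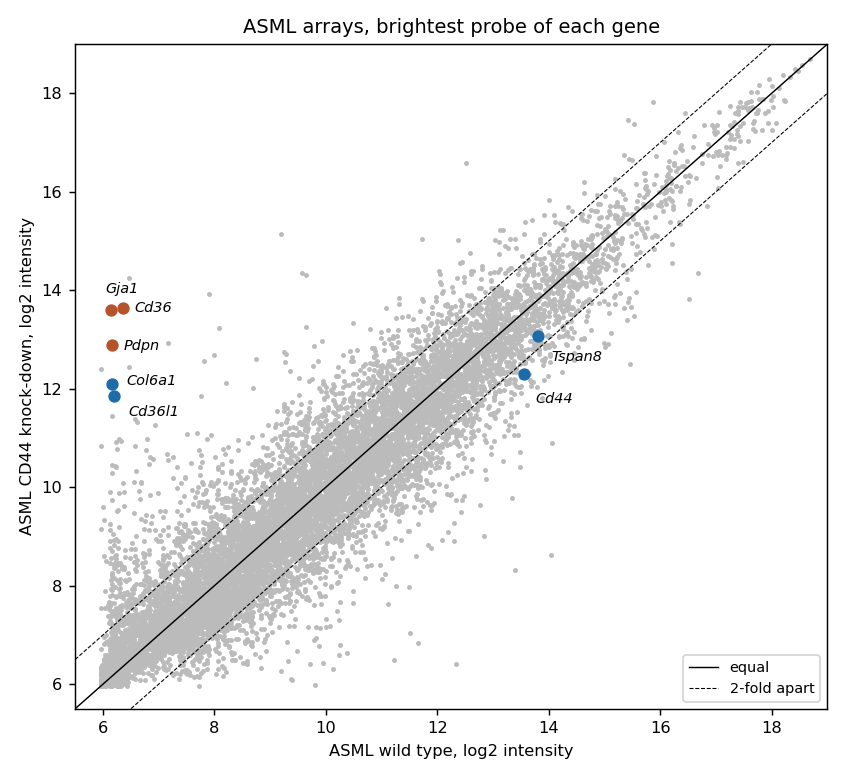
Level of each gene's brightest probe on the array of ASML cells labelled CD44 knock-down (vertical axis, log2 intensity) against wild-type ASML (horizontal axis, log2 intensity), 1 point per gene, 1 array each. Gja1, Cd36 and Pdpn stand at the upper left, with 6.14 to 6.36 in wild type and 12.88 to 13.63 with knock-down, while Cd44 lies below the line of equal levels.

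Outside the ASML pair the 3 genes had 3 different profiles. Gja1 was high on 10 of 11 arrays and low only in wild-type ASML. It read 13.25 (replicate 1) and 13.27 in EC after ASTspan8 exosomes, 13.55 in EC after AS exosomes and 13.84 in EC control. In RF it read 11.91 after ASTspan8 exosomes, 12.52 after AS exosomes and 12.42 in control, and in exosome RNA 12.53 (replicate 1) and 12.54. The order of the groups was EC control, ASML knock-down, EC after AS exosomes, EC after ASTspan8 exosomes, exosome RNA, RF after AS exosomes, RF control, RF after ASTspan8 exosomes and, 5.77 log2 lower, wild-type ASML. The limit of 2 standard errors of the pooled spread was used for the other groups only, because both ASML arrays chose the genes. By this limit exosome RNA was not separated from RF after AS exosomes (0.02 log2), nor RF after AS exosomes from RF control (0.10 log2). The knock-down array lay within the range of the EC arrays, 13.25 to 13.84. The low place of wild-type ASML follows from the choice of the genes and was not tested.

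Cd36 was highest with CD44 knock-down, 3.39 log2 above the next group, and intermediate in the recipient cells. EC read 8.96 (replicate 1) and 8.66 after ASTspan8 exosomes, 8.56 after AS exosomes and 9.25 in control. RF read 7.90 after ASTspan8 exosomes, 8.61 after AS exosomes and 10.24 in control. Exosome RNA read 6.68 (replicate 1) and 6.31, as low as wild-type ASML at 6.36. The order was ASML knock-down, RF control, EC control, EC after ASTspan8 exosomes, RF after AS exosomes, EC after AS exosomes, RF after ASTspan8 exosomes, exosome RNA and wild-type ASML. No gap between neighbours from EC control down to EC after AS exosomes exceeded 2 standard errors, and the limit was not used for the ASML arrays.

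Pdpn was highest in exosome RNA, at 15.15 (replicate 1) and 15.11, which is 2.25 log2 above the knock-down array on average. The dimmer probe also put exosome RNA first, with 10.22 (replicate 1) and 10.30 against 7.96 with knock-down. EC read 6.56 (replicate 1) and 6.73 after ASTspan8 exosomes, 6.29 after AS exosomes and 7.60 in control. RF read 6.11 after ASTspan8 exosomes, 6.24 after AS exosomes and 6.43 in control. The podoplanin transcript thus read below log2 7 in 6 of the 7 EC and RF arrays and in wild-type ASML, and EC control stood 5.28 log2 below the knock-down array. Below EC after ASTspan8 exosomes the order was RF control, EC after AS exosomes, RF after AS exosomes, wild-type ASML and RF after ASTspan8 exosomes. No gap from RF control down to RF after AS exosomes was over 2 standard errors, and the limit was not used for wild-type ASML. Both ASML arrays chose the genes, so no test sets exosome RNA against them, and the donor line differs from ASML.

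**Figure D2:**
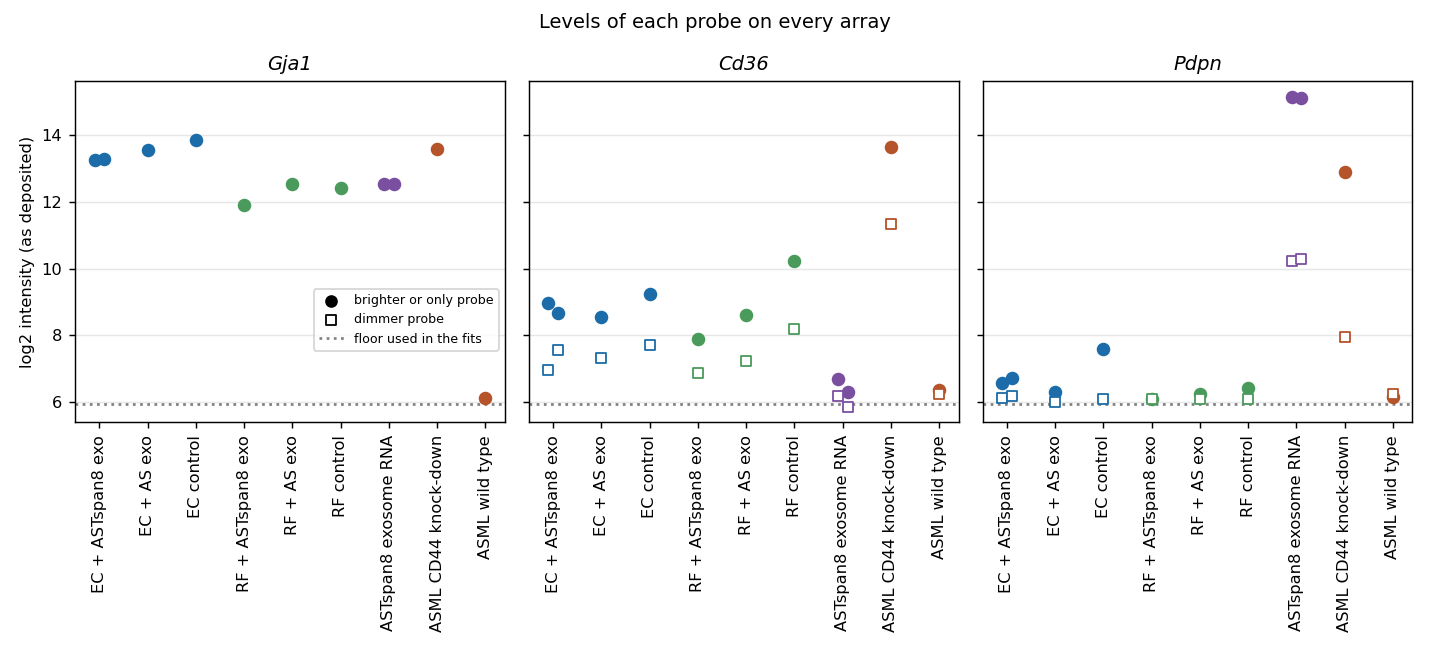
Log2 intensity of every probe of Gja1, Cd36 and Pdpn on all 11 arrays, 1 point per array, by group. Gja1 is low only in wild-type ASML (6.14), Cd36 is highest with CD44 knock-down (13.63), and Pdpn is high only with knock-down (12.88) and in exosome RNA (15.15 and 15.11).

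The levels in EC and RF were not used to choose the genes and can be tested. Differences against or within EC after ASTspan8 exosomes were tested with limma over all 11 arrays, where the 2 duplicated groups give the spread and single arrays are assumed to vary like them. For comparisons across both recipient cells, limma was fitted to the 7 arrays of EC and RF. Adjusted p-values are Benjamini-Hochberg values over 18619 probes. In this bulk RNA, fewer cells of a type and less RNA per cell cannot be told apart. In EC, Gja1 and Pdpn were lower after ASTspan8 exosomes than in control. Gja1 averaged 13.26 after ASTspan8 exosomes and 13.84 in control, a difference of -0.58 ± 0.07 log2 (SE, n = 2 against 1; limma adjusted p = 0.0204). Pdpn averaged 6.64 after ASTspan8 exosomes and 7.60 in control, a difference of -0.96 ± 0.10 (limma adjusted p = 0.0198). Both treated arrays lay below the single control array for both genes. The dimmer Pdpn probe, at the bottom of the scale, gave 0.05 ± 0.08 (limma adjusted p = 0.676). Cd36 gave -0.44 ± 0.22 (limma adjusted p = 0.238), also with both treated arrays below the control. So 2 of 3 members passed, where 26.1% of the 11069 genes did. Without either of the 2 treated arrays neither gene passed, with limma adjusted p-values of 0.191 to 0.193 and differences of -0.57 to -0.59 for Gja1 and -0.87 to -1.04 for Pdpn.

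The AS exosomes were set against the same control on 1 array each. Pdpn read 6.29 after AS exosomes, near the bottom of the scale, and 7.60 in control (-1.31 log2). Its dimmer probe read 6.02 after AS exosomes and 6.11 in control (-0.09). Cd36 gave -0.69 and Gja1 -0.29. Pdpn alone of the 3 was at least 2-fold apart, on its brighter probe only, against 1.26% of genes. Both comparisons share the EC control array, on which all 3 genes were at their EC maximum, and a deviation of that array was not tested. Between the exosome types in EC none of the 3 passed, against 16.3% of genes. ASTspan8 minus AS exosomes gave -0.29 ± 0.07 for Gja1 (limma adjusted p = 0.0661), 0.35 ± 0.10 for Pdpn (limma adjusted p = 0.0981) and 0.25 ± 0.22 for Cd36 (limma adjusted p = 0.495).

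In RF, Cd36 was the member with the largest difference. It read 7.90 after ASTspan8 exosomes and 10.24 in control, a difference of -2.34 log2 on 1 array each, and -1.32 on the dimmer probe. Gja1 gave -0.51 and Pdpn -0.32, so 1 of the 3 was at least 2-fold apart where 10.4% of genes were. After AS exosomes Cd36 gave -1.63 (dimmer probe -0.95), Gja1 0.10 and Pdpn -0.19, again 1 of 3 where 2.17% of genes were at least 2-fold apart. ASTspan8 minus AS exosomes gave -0.71 for Cd36, -0.61 for Gja1 and -0.13 for Pdpn, with 0 of 3 at least 2-fold apart against 9.68% of genes. Both treated RF arrays thus lay below the shared RF control for Cd36 on both probes.

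The response to ASTspan8 exosomes was compared between the recipient cells, and the share of members that passed was that of all genes: 1 of 3, where 33.7% of genes did. The member was Cd36, on its brighter probe alone. Its difference from control was -0.44 in EC and -2.34 in RF, so that EC minus RF gave 1.90 ± 0.34 log2 (limma adjusted p = 0.0275). The dimmer probe had the same sign and did not pass (0.88 ± 0.44, limma adjusted p = 0.214). Pdpn gave -0.63 ± 0.16 (limma adjusted p = 0.0531) and Gja1 -0.07 ± 0.10 (limma adjusted p = 0.657). Without either EC array after ASTspan8 exosomes the Cd36 value was 1.75 or 2.05 and no longer passed (limma adjusted p = 0.139 and 0.126), and with no filter on dim probes limma adjusted p = 0.0507.

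Averaged over EC and RF, no member passed for either exosome type. ASTspan8 exosomes minus control gave -0.53 ± 0.15 for Gja1, -1.25 ± 0.42 for Cd36 and -0.64 ± 0.25 for Pdpn (limma adjusted p = 0.227, 0.262 and 0.309), where 1 of 11069 genes or 0.00903% passed and 1705 had an unadjusted p under 0.05, the 3 members among them. AS exosomes minus control gave -0.09 ± 0.16 for Gja1, -1.16 ± 0.45 for Cd36 and -0.75 ± 0.27 for Pdpn (each limma adjusted p = 0.999). For AS exosomes 0 genes or 0% passed in limma and 343 had an unadjusted p under 0.05, Cd36 and Pdpn among them but not Gja1. Responses that differ between EC and RF count as spread in this fit. The values of Cd36 and Pdpn moved with the control array left out. Cd36 gave -0.58 after ASTspan8 and -0.42 after AS exosomes without the RF control, and -2.07 and -1.90 without the EC control. Pdpn gave -1.02 after ASTspan8 and -1.17 after AS exosomes without the RF control, and -0.18 and -0.33 without the EC control.

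EC and RF differed in Gja1 whatever the treatment. Gja1 averaged 13.55 over the EC groups and 12.28 over the RF groups, and the fitted difference was 1.27 ± 0.12 log2 (limma adjusted p = 0.00734), with all 4 EC arrays above all 3 RF arrays. Pdpn gave 0.58 ± 0.21 (limma adjusted p = 0.135) and Cd36 0.05 ± 0.35 (limma adjusted p = 0.939). So 1 of 3 members passed as higher in EC, where 5.07% of genes did, and 0 passed as lower, where 3.6% did. Without the unnumbered EC array after ASTspan8 exosomes, the Gja1 difference was 1.26 (limma adjusted p = 0.0503).

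**Figure D3:**
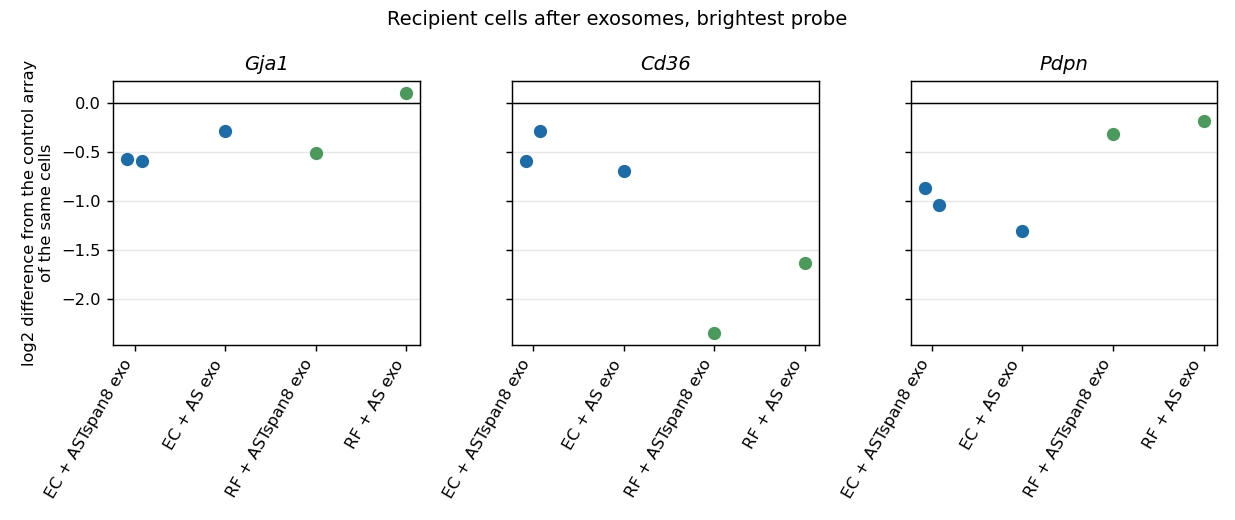
Log2 difference of Gja1, Cd36 and Pdpn between exosome-treated EC or RF and their own control, for ASTspan8 and AS exosomes. Each point is 1 treated array minus the single control array, and the vertical axis is the same for all 3 genes. Cd36 in RF shows the largest differences of those drawn, -2.34 after ASTspan8 and -1.63 after AS exosomes, and Gja1 after AS exosomes in RF is the only point above 0 (0.10).

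Genes known to act with the 3 members were read between the same ASML arrays, where all genes had a median difference of -0.01 log2. Of all genes, 10.6% were at least 2-fold higher with CD44 knock-down and 8.98% at least 2-fold lower. These shares stand beside each 2-fold count of the lists. The members were chosen for a large difference here and the lists were not, so the list values are given as a description and are not set against the members. Of 21 other connexin and pannexin genes 17 had a probe and 5 passed the filter. Of these 5, 0 were at least 2-fold higher with CD44 knock-down and 3 at least 2-fold lower (median -1.15): Gja4 at 7.36 with knock-down and 8.60 in wild type, Gjc1 at 6.25 and 7.47, and Gjb5 at 7.14 and 8.29. Gja10 gave -0.41. Of 8 measured partners of connexin 43, 2 were higher and 2 lower at 2-fold (median 0.15). Cav1, the main coat protein of caveolae, read 17.37 with knock-down and 15.52 in wild type (1.85 log2), and Ccn3, a matrix signalling protein that binds the connexin's tail, differed by 1.27. Dbn1, an actin-binding protein, gave -1.13. The kinase Src, which phosphorylates connexin 43, read 7.57 with knock-down and 8.57 in wild type.

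Of the other scavenger receptors 5 of 12 passed the filter, and none was 2-fold apart (median -0.72). Scarb1, the receptor for high-density lipoprotein, gave -0.88 and the lysosomal Scarb2 -0.72. Cd68, a lysosomal glycoprotein, gave -0.75 and Scara3 0.41. Among 34 genes of fatty acid uptake and use 19 passed the filter, 1 was at least 2-fold higher and 0 lower (median -0.04). The one was Cpt1b, the muscle form of the enzyme that passes fatty acids into mitochondria, at 9.57 with knock-down and 8.42 in wild type. The acyl-CoA synthetase gene Acsl3 gave 0.74, the triglyceride enzyme Dgat1 0.71 and the fatty acid-sensing receptor Ppard -0.66. Pparg, the nuclear receptor known to drive Cd36 in adipocytes and macrophages, read 10.03 with knock-down and 10.58 in wild type. The lipid-binding Fabp5 read 14.66 with knock-down and 14.65 in wild type, and the adipocyte form Fabp4 was near the bottom of the scale at 6.11 and 6.07. Of 11 ligands and membrane partners of CD36 on the array 10 passed the filter, of which 2 were higher and 2 lower (median -0.21). The tetraspanin Cd81 differed by 1.41 and the integrin chain Itgb1 by 1.15, while the co-receptor Tlr6 gave -1.73 and the ligand Thbs1, thrombospondin 1, gave -1.19.

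For podoplanin, 9 of 11 partners and effectors passed the filter, with 1 higher, 1 lower and a median of -0.20. The higher one was the kinase Rock2 (9.39 with knock-down and 8.16 in wild type). The lower one was Cd44, the target of the knock-down itself, on its brightest probe, while 2 of its dimmer probes were higher (0.51 and 1.34 log2). The galectin Lgals8 gave 0.98 and the small GTPase Rhoa -0.55. Ezr, the linker ezrin, read 15.02 with knock-down and 15.22 in wild type, and Clec1b, which encodes CLEC-2, was near the bottom of the scale at 6.24 and 6.34. Of 10 lymphatic endothelial genes 5 passed the filter and none was 2-fold apart (median -0.44). Nrp2 gave -0.53, Sox18 -0.46, Flt4 -0.44 and Vegfc 0.13. The lymphatic regulator Prox1 read 6.19 with knock-down and 6.28 in wild type, and the hyaluronan receptor Lyve1 6.20 and 6.39.

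**Figure D4:**
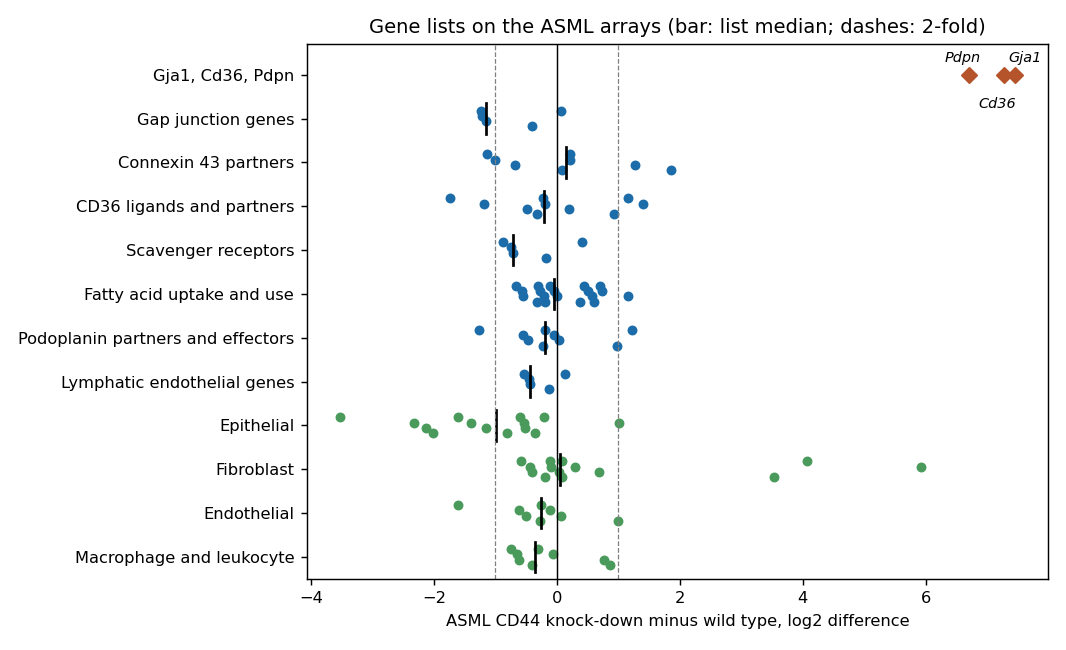
Log2 difference between ASML with CD44 knock-down and wild-type ASML for each gene past the filter in the lists around the members (blue) and in the marker lists (green), 1 point per gene, 1 array each, with the 3 members on a line of their own, list medians as bars and 2-fold as dashes. The genes of the blue lists lie between -1.73 (Tlr6) and 1.85 (Cav1), and the markers reach from -3.52 (Esrp1) to 5.92 (Col6a1). The members, at 6.71 to 7.45, were chosen for this difference, so their line is no comparison with the lists.

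The same lists were read between the recipient cells, where tests are possible. For EC minus RF, where 5.07% of all genes were higher and 3.6% lower, 0 of 5 connexin genes passed, 1 of 8 connexin 43 partners was higher (Ccn3, 3.31 log2, limma adjusted p = 0.00129) and 0 of 5 scavenger receptors and 0 of 5 lymphatic genes passed. Of 10 CD36 ligands and partners 3 were higher in EC: Itgb1 by 5.37 (limma adjusted p = 0.00104), Thbs2 by 4.31 (limma adjusted p = 0.000846) and Cd9 by 1.30 (limma adjusted p = 0.00718). Of 19 fatty acid genes 1 was higher, Fabp5 by 5.80 (limma adjusted p = 0.000846). Of 9 podoplanin partners Cd9 was higher and Rock2 lower (-1.01, limma adjusted p = 0.00981).

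In EC after ASTspan8 exosomes, again set against the single control array, members of the lists moved in both directions (limma adjusted p under 0.05 in each case), where 26.1% of all genes passed. Of 19 fatty acid genes 6 rose and 3 fell. The risen were the fatty acid transport genes Slc27a1 (0.43 log2), Slc27a3 (0.85) and Slc27a4 (0.60), the carrier Fabp5 (0.67), Dgat1 (0.46) and Cpt1a (0.77), the liver form of the mitochondrial entry enzyme. The fallen were Acsl3 (-0.68), Acsl4 (-0.96) and Acsl5 (-0.50), which couple fatty acids to coenzyme A. Among 8 connexin 43 partners Dbn1 rose (0.52) and 4 fell: the scaffold Tjp1 (-0.44), Cav1 (-0.46), the junction protein Ctnnb1 (-0.67) and the ubiquitin ligase Nedd4 (-1.02). Of 5 connexin and pannexin genes Gja4 rose (0.44, limma adjusted p = 0.0273) and 0 fell. Of 10 CD36 ligands and partners Tlr2 rose (0.51), and Thbs2 (-0.93), Itgb1 (-0.57) and Cd9 (-0.67) fell. Of 9 podoplanin partners 0 rose and 2 fell, the linker radixin, Rdx (-0.52), and Cd9. Cd68 was the 1 scavenger receptor that fell (-0.54), and Nr2f2, a transcription factor of veins and lymphatics, was the 1 lymphatic gene that rose (1.06). Over all genes 1454 rose and 1436 fell, with a median of 0.01.

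Markers of other cell types were read on the same arrays. For their 2-fold counts in the ASML pair, the shares over all genes were 10.6% higher and 8.98% lower with knock-down. Epithelial markers above log2 9 numbered 12 of 14 with CD44 knock-down and 13 of 14 in wild type, with list medians of 12.72 and 13.50 over the same genes. Of the 14, 7 were at least 2-fold lower with knock-down, such as the splicing regulator Esrp1 (7.98 against 11.50) and the keratin Krt18 (14.35 against 16.68), and 1 was higher, the protease inhibitor Spint2 (1.01 log2). Epcam read 13.89 with knock-down and 14.24 in wild type. Of 14 fibroblast markers past the filter, 3 were at least 2-fold higher with knock-down and 0 lower (median 0.05). These were the collagens Col6a1 (12.09 against 6.17) and Col3a1 (9.90 against 6.37) and the calcium-binding protein S100a4 (16.59 against 12.52). Fibroblast markers above log2 9 numbered 5 of 15 with knock-down and 3 of 15 in wild type, against 13 of 15 in both EC and RF control, and the proteoglycan Dcn stayed near the bottom of the scale at 6.27 with knock-down and 6.19 in wild type. Macrophage and leukocyte markers had 0 of 8 past the filter at 2-fold (median -0.35), with the pan-leukocyte gene Ptprc at 6.29 on both ASML arrays. Of 7 adipocyte markers 0 passed the filter, and of 5 mesothelial markers only Msln did, at 15.96 with knock-down and 15.77 in wild type. Endothelial markers above log2 9 numbered 2 of 14 with knock-down and 3 of 14 in wild type. They numbered 3 of 14 in EC control and 3 of 14 in RF control. The 3 were Vwf, the von Willebrand factor gene (10.44 in EC and 9.46 in RF), Egfl7 (10.75 in EC and 10.69 in RF) and the TGF-beta co-receptor Eng (10.09 in EC and 9.69 in RF). Below log2 9 lay the other 11, among them the junction gene Cdh5 (7.87 in EC and 7.96 in RF) and Kdr, the main VEGF receptor (6.52 in EC and 6.62 in RF). A fixed level means different amounts of RNA for different probes, so these counts only describe the arrays. The part of the markers in the members' values was not tested.

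The genes whose group means were most like each member's were picked by Pearson's r over the 9 groups, as a description with no p, among genes spanning at least 1 log2 unit. Large differences at the ASML arrays weigh heavily in these values, so r over the 7 groups without ASML stands beside them. For Gja1 they were Tmem214 (r = 0.968; 0.532 without ASML), Timp1 (0.955; 0.707), Dolk (0.951; 0.916), Hp1bp3 (0.946; 0.59) and Ndst2 (0.944; 0.267). Timp1, an inhibitor of metalloproteinases, read 14.55 with CD44 knock-down and 12.41 in wild type, and 13.82 to 14.95 elsewhere. All 5 genes were lowest in wild-type ASML, but none was near the bottom of the scale there.

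For Cd36 the nearest gene was Cd36l1, with r = 0.989 and 0.99 without ASML. It read 11.85 with knock-down, 6.20 in wild type, 8.59 in RF control and 8.05 in EC control. Cd36l1 is the immediate neighbour of Cd36 on chromosome 4, with 0 genes between them in GRCr8, and is named as a Cd36-like copy. Whether probes of the pair bind each other's transcripts was not tested. The next were the membrane protease Tmprss7 (0.972; 0.9 without ASML), Ormdl2 (0.971; 0.868), the secreted guidance factor Sema3a (0.964; 0.831) and Sfi1 (0.94; 0.745). Sema3a followed Cd36 on both sides of the ASML pair, at 10.45 with knock-down and 6.16 in wild type, and was 8.18 in RF control.

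For Pdpn the nearest were Csrnp3 (0.992; 0.99 without ASML), Tbc1d30 (0.987; 0.984), Gckr (0.986; 0.99), Myh3 (0.977; 0.991) and Tbata (0.973; 0.985). All 5 were higher in exosome RNA and with CD44 knock-down than in the other 7 groups. Their r values without ASML rest largely on exosome RNA, where Pdpn averaged 15.13, against 6.11 to 7.60 in the EC and RF groups. They are therefore no separate check of likeness. Csrnp3 read 11.89 in exosome RNA, 10.29 with knock-down and 6.16 in wild-type ASML, and Gckr, the regulator of glucokinase, read 10.20, 9.89 and 6.29. Between the members r was 0.528 for Gja1 and Cd36, 0.242 for Gja1 and Pdpn and 0.195 for Cd36 and Pdpn. These are not comparable with the values above, which belong to genes picked for the highest r, and they include the ASML arrays that chose the members. Without ASML these were 0.272, -0.098 and -0.738, and the values that involve Pdpn again rest largely on exosome RNA.

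**Figure D5:**
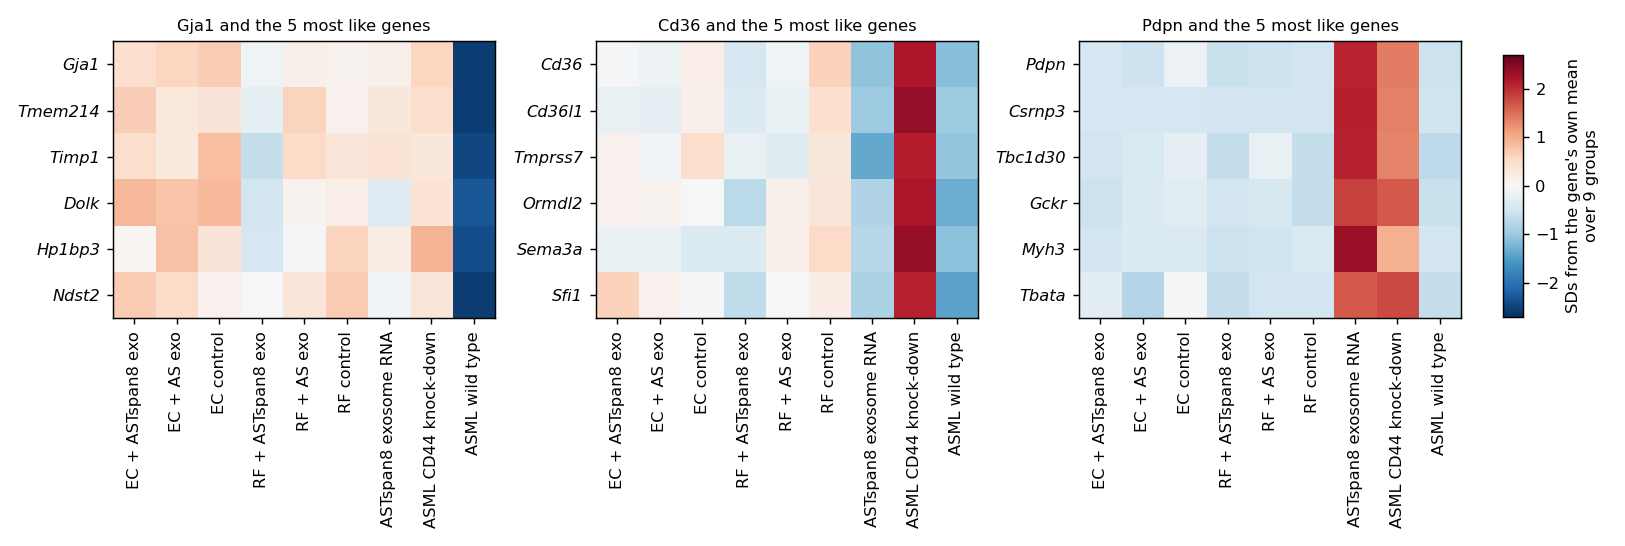
Group means of each member and its 5 most like genes over the 9 groups, coloured by the number of standard deviations (SDs) from each gene's own mean. Gja1 and its like genes are low in wild-type ASML, Cd36 and its like genes are high with CD44 knock-down, and Pdpn and its like genes are high in ASTspan8 exosome RNA and with CD44 knock-down.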

How the data were processed

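Rat RNA from 11 samples was measured on 1-colour Agilent arrays, with Cy3 named as the dye per the labels. The deposited values are linear intensity, normalized by the authors with a method not given in the sources used here. Across all 11 arrays the highest single value is 422913, and array medians span 0.08 log2. The file gives no detection calls and no scan data, so batches could not be examined. Signal over background is unknown, and the number of arrays limits the precision.

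From the deposited intensity, a floor was set at log2 5.96, percentile 1 of all values (0.82% lay below), after which log2 was taken. Of 30367 probes 20369 had 1 gene symbol in the platform's annotation and 9998 had none. Names were updated with RefSeq's GRCr8 gene table, 17237 by accession, 2569 by symbol and 551 by synonym, and 12 were kept. A probe was kept if its within-array percentile passed 50 in at least 1 group, which left 18619 probes and 11069 genes, each represented by its brightest probe.

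limma 3.58.1 in R 4.3.3 fitted 9 group means over 11 arrays, or cell type plus treatment over the 7 EC and RF arrays, with Benjamini-Hochberg adjustment at 0.05, two-sided. The scripts were tested on simulated data. The EC duplicates differed with an SD of 0.144 log2 and the exosome duplicates with an SD of 0.395, including Cd44 at 11.11 against 6.02. Members, gene lists and alternatives were chosen with earlier results of these data known. Named were the members, Cd44, Tspan8, the 5 genes most like each member, up to 4 genes of each list by their ASML difference, and list genes that passed a test. Other genes (Pparg, Fabp4, Fabp5, Ezr, Clec1b, Prox1, Lyve1, Epcam, Dcn, Ptprc, Kdr and Egfl7, and Wfdc15a and Cdh6 for their rank) were named for their role, place or level after their values were seen. Alternatives were quantile normalization, no floor, averaging a gene's probes, changed filters, trend and robust eBayes, only the EC arrays, and each replicate left out.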

Additional observations from a re-analysis of the deposited data

Results flagged for a closer look

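For the response of Cd36 to ASTspan8 exosomes, EC minus RF gave 1.90 ± 0.34 log2 (limma adjusted p = 0.0275) in a test that 33.7% of all genes passed. The dimmer Cd36 probe gave 0.88 ± 0.44 (limma adjusted p = 0.214). Over the alternatives the limma adjusted p lay between 0.00146 and 0.139. The EC arrays after ASTspan8 exosomes read 8.96 and 8.66 against 9.25 in EC control, and the single RF array read 7.90 against 10.24 in RF control.

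Gja1 after AS exosomes gave -0.29 log2 in EC (13.55 against 13.84) and 0.10 in RF (12.52 against 12.42), on 1 array each. The signs are opposite, but the RF gap lay within 2 standard errors of the pooled spread (SE 0.08), so RF shows no clear direction. The difference between EC and RF was not tested.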

How the results depend on the processing

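Of 195 recomputed values for 21 results, 177 kept their direction and side of the threshold or, for untested values, stayed close. With the mean of a gene's probes the ASML difference was 6.19 log2 for Cd36 and 4.21 for Pdpn, because the dimmer probes enter, and quantile normalization gave 7.39 for Gja1. With no filter on dim probes, where more probes are tested, Cd36 EC minus RF in the ASTspan8 effect (1.90, limma adjusted p = 0.0507) and Gja1 in EC after ASTspan8 exosomes minus control (-0.58, limma adjusted p = 0.0519) no longer passed. With a filter at percentile 75, with fewer probes tested, ASTspan8 minus AS exosomes in EC passed for Gja1 (-0.29, limma adjusted p = 0.0149) and Pdpn (0.35, limma adjusted p = 0.0366), and so did EC minus RF in the ASTspan8 effect for Pdpn (-0.63, limma adjusted p = 0.0179). Pdpn meets that filter only through exosome RNA and the ASML knock-down array, which helped to choose it, and its EC arrays lie at percentiles 21.6 to 53.8, so these Pdpn values support nothing. Trend and robust eBayes gave -0.29 for the first (limma adjusted p = 0.00619).

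With arrays left out in turn, Cd36 EC minus RF lay between -0.09 and 0.50 and turned without EC ASTspan8 replicate 1. Gja1 after AS exosomes over both cells lay between -0.20 and 0.01 and turned without the EC control, an alternative added after seeing the data, as was leaving out the RF control. Cd36 EC minus RF in the ASTspan8 effect lay between 1.75 and 2.05, Gja1 in EC after ASTspan8 exosomes minus control between -0.59 and -0.57, Pdpn between -1.04 and -0.87, and Gja1 EC minus RF between 1.21 and 1.27 (limma adjusted p from 0.0348 to 0.0503). These were the calls lost without a replicate. No paired analysis was possible because the groups share fewer than 2 replicate numbers.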
